A study of Mus musculus with 21 samples.

Results

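The 10 genes described here, Ly6c2, Lyz1, Lyz2, C1qa, C1qb, C1qc, Adgre1, Fcgr1, Csf1r and Mpo, are commonly used to recognise monocytes, macrophages and their precursors, and were followed through sorted dendritic cells (DCs) of an Aire-reporter mouse strain. They were picked by symbol from a count table of 55471 genes, and all 10 were found there. RNA was sequenced from 21 sorted samples, 3 biological replicates in each of 7 groups, and every group came from C57BL/6 mice of 6 weeks that carry the reporter allele AGF-KI. In KI/+ mice the other Aire allele is normal, whereas the mice that the labels call AireKO are AGF-KI/-. Lymph node cells positive for CD45, CD11c and MHC class II were divided into reporter-positive AGF+ and reporter-negative AGF- cells, in both genotypes. AGF+ cells of both genotypes were also taken from bone marrow, sorted as B220-negative and CD24+ cells with little or no CD11b. The remaining group, from the bone marrow of KI/+ mice only, holds B220-negative cells positive for CD11c and MHC class II, and is called total DC here, as in the sample titles (the design text has AGF-). The 2 bone marrow sorts therefore used different surface markers besides the reporter. The sources used here do not say which part of Aire each allele is missing.

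Monocytes leave the bone marrow with high surface Ly6C and can become macrophages or cells that resemble DCs in tissue. Macrophages depend on signals through the CSF1 receptor, carry the adhesion receptor F4/80 and the high-affinity IgG receptor CD64, and are a main source of C1q, which starts the classical complement pathway. Lysozyme is made through much of the myeloid lineage, and myeloperoxidase is made early, in granulocyte and monocyte precursors. A gate on CD11c and MHC class II does not by itself exclude macrophages or monocyte-derived cells, and several of these genes are also transcribed in some DCs.

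Libraries held 4164451 to 6055097 counts. Levels are given as CPM, counts scaled to a common effective library size, and 1 CPM rests on 3.91 to 6.56 counts, so C1q, Fcgr1, Ly6c2 and Mpo rest on few counts in many libraries. A count of 0 in a library allows 0.458 to 0.767 CPM, for counting error only. Aire fell in AireKO AGF+ cells of lymph node (log2 fold change -2.19 ± 0.15 SE, edgeR adjusted p = 8.57e-06) and of bone marrow (-2.81 ± 0.22, adjusted p = 0.000354). All mice are labelled male, but the 7 libraries numbered 2, 1 in each group, stood at 2028 to 4008 CPM for Xist, an RNA of the inactive X chromosome, and at 0 to 0.768 CPM for 4 Y-linked genes summed. The other 14 had 0 to 31.2 and 331 to 568 CPM. Values without the libraries numbered 2 are given wherever a call changed. Markers of DCs, 10 genes, were all read in each group. Flt3, the receptor for a DC growth factor, was lowest in total DC at 21.3 to 55.2 CPM, against 230.3 to 611 CPM in the other groups. Zbtb46, a transcription factor of conventional DCs, stood at 106 to 171 CPM in total DC and 128 to 362 CPM elsewhere. Tests are edgeR's quasi-likelihood test of 3 libraries against 3, without pairing by replicate number. The p-values are adjusted by Benjamini-Hochberg over all genes tested. In sorted bulk RNA, fewer cells that express a gene and less RNA of it per cell cannot be told apart.

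Promoter sequences were available for 7 of the 10 genes, and each of the 7 held the letters AGGAAGT on one strand, read ACTTCCT on the other. These letters are a core of the sites bound by PU.1, the Spi1 product, and by other ETS factors. The motif was chosen after these promoters had been read, and 10.7% of 27025 genes held it in at least 1 window of the same length, 250 bases before to 50 after the start, so the match is a description and no sign of binding. The windows below are RefSeq sequences on GRCm38.p6, 5′ to 3′ on the strand of the gene, with the match in capitals. The first pair shows a stretch in which the 2 lysozyme genes are alike, since they differ below in the size of their gap between the tissues. They lie in tandem on the minus strand of chromosome 10.
Lyz2, chr10:117282323-117282422: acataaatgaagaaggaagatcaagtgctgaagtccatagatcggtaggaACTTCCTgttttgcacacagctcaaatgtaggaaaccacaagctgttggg
Lyz1, chr10:117292919-117293018: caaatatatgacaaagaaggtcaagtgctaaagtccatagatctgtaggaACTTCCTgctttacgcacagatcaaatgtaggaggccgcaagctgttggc
Ly6c2, chr15:75112047-75112103, minus strand: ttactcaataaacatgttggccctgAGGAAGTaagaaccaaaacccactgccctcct
Fcgr1, chr3:96293999-96294055, minus strand: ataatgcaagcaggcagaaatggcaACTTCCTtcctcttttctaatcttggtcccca
C1qb, chr4:136886222-136886278, minus strand: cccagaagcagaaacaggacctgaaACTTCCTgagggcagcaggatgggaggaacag
C1qc, chr4:136893078-136893134, minus strand: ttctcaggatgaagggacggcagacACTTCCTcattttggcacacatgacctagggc
Mpo, chr11:87793536-87793592, plus strand: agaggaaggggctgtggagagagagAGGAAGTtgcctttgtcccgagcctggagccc
The Lyz1 and Lyz2 windows carry the match at the same distance from the RefSeq start of each gene, its first base 100 bases before it, and were identical at 79 of 100 bases. The GENCODE span of Lyz2 printed below begins further upstream than the RefSeq start. Of the 100 bases further upstream only 23 were identical when the 2 promoters were aligned from the RefSeq start without gaps.

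**Figure D1:**
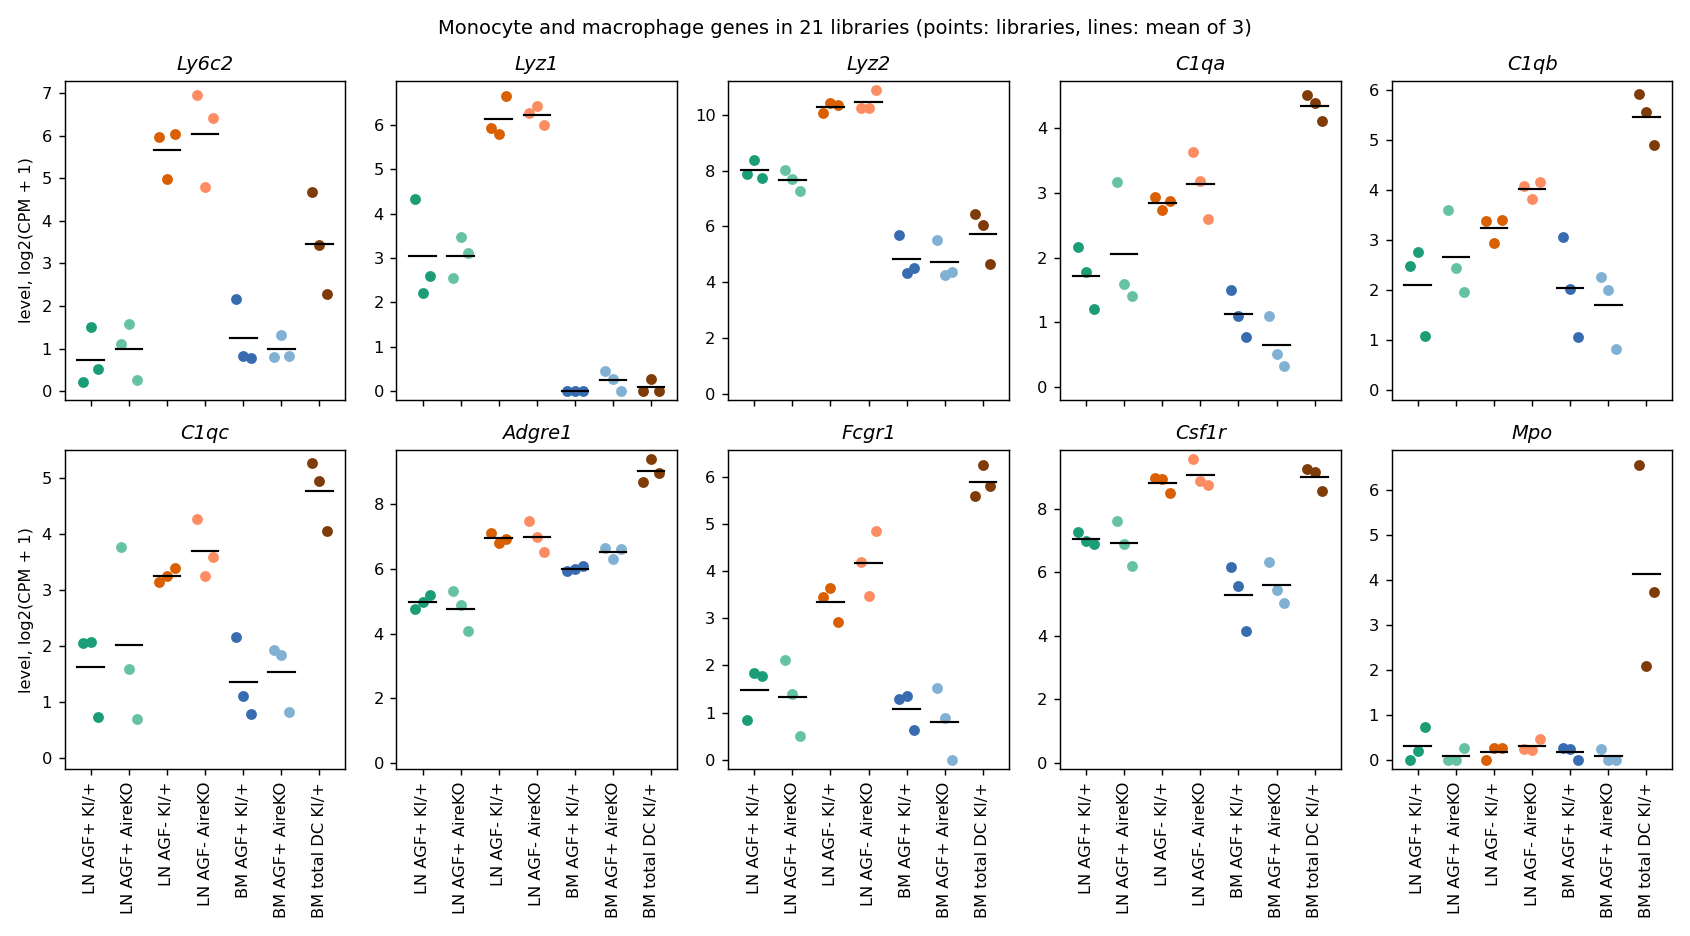
Level of each gene, as log2(CPM + 1), in lymph node (LN) and bone marrow (BM) groups; points are the 3 libraries of a group and lines their mean. Ly6c2, Lyz1 and Lyz2 are highest in lymph node AGF- cells, while C1qa, C1qb, C1qc, Adgre1, Fcgr1 and Mpo are highest in bone marrow total DC.

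The genes fell into opposite patterns between the populations other than AGF+ cells, and in each tissue their mean level in KI/+ mice was lower in AGF+ cells, except that of Mpo in lymph node. Ly6c2, Lyz1 and Lyz2 had their highest mean level in lymph node AGF- cells. C1qa, C1qb, C1qc, Adgre1, Fcgr1 and Mpo had theirs in bone marrow total DC, and Csf1r was about as high in the one as in the other. Adgre1 was the gene whose bone marrow AGF+ level lay above its lymph node AGF+ level in every library.

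Ly6c2 (ENSMUSG00000022584, chromosome 15, 75108158 to 75111970 on GRCm38) encodes a Ly6C antigen of inflammatory monocytes that some T, NK and plasmacytoid cells also carry. In lymph node its level in AGF- cells was 61.9, 30.4 and 64.7 CPM in KI/+ mice and 122, 26.7 and 83.7 CPM in AireKO. In AGF+ cells it was 0.158, 1.83 and 0.438 CPM in KI/+ mice and 1.17, 2.01 and 0.206 CPM in AireKO. Every AGF+ library thus lay far below every AGF- library, and the libraries numbered 2 were the lowest AGF- libraries in both genotypes. The difference was -5.90 ± 0.71 on the log2 scale in KI/+ (adjusted p = 6.34e-05) and -6.06 ± 0.69 in AireKO (adjusted p = 2.78e-05), the largest among the 9 genes tested in lymph node. Without the AGF+ library 2 the differences were -7.44 (adjusted p = 0.000352) and -6.67 (adjusted p = 0.000256).

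Markers of T and NK cells and of plasmacytoid DCs moved with Ly6c2 in lymph node. The T and NK cell markers, 11 genes, together stood at 404, 131 and 463 CPM in AGF- KI/+ cells and at 684, 149.8 and 496 CPM in AGF- AireKO cells, lowest in the libraries numbered 2, against 43.1 to 66.9 CPM in AGF+ cells. All 11 were lower in AGF+ cells in both genotypes, with Ncr1 at 0 in AGF+ KI/+ cells. Of 8 plasmacytoid DC markers, 5 were lower in AGF+ KI/+ cells (Ly6d, Klk1, Siglech, Cox6a2 and Pacsin1) and 6 in AGF+ AireKO cells. Their sum was 516 to 800 CPM in AGF- KI/+ and 619.9 to 1227 CPM in AGF- AireKO cells, against 392 to 459.6 CPM in AGF+ cells, and Siglech was lower by -3.73 ± 0.68 in KI/+ and -4.06 ± 0.69 in AireKO. The part of these cells in the Ly6c2 difference was not tested. The summed level of 14 monocyte genes was likewise 683 to 859.7 CPM in AGF- KI/+ and 700.1 to 1402 CPM in AGF- AireKO cells, against 91.5 to 134 CPM in AGF+ cells.

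In bone marrow Ly6c2 reached 24.4, 9.87 and 3.87 CPM in total DC, 3.48, 0.768 and 0.716 CPM in AGF+ KI/+ and 0.754, 1.5 and 0.767 CPM in AGF+ AireKO cells. The total DC libraries spread widely, and the lowest of them was just above the highest AGF+ KI/+ library. AGF+ cells were lower by -2.94 ± 0.70 (adjusted p = 0.00552), a call that was lost without the libraries numbered 2 (-2.74, adjusted p = 0.0616). Its size moved to -2.06 without the total DC library 1 (adjusted p = 0.0146) and to -4.03 without the AGF+ KI/+ library 1 (adjusted p = 0.00327). The summed T and NK cell markers were low in total DC, 6.00 to 6.78 CPM, and higher in AGF+ KI/+ cells, 26.4 to 36.1 CPM, opposite to Ly6c2. Of these markers Lck (5.43 ± 0.39) and Gzma (4.76 ± 0.90) were called higher. Cd4 leaned lower without passing (-1.13 ± 0.62, adjusted p = 0.163), and the others were too low to be tested. The close relative Ly6c1 had 0 counts in every bone marrow library and at most 0.585 CPM in lymph node. Of the 50-base windows of the Ly6c2 transcript, 32.6% also occur in Ly6c1, and 5.79% of its 150-base windows, so some reads could belong to either gene.

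Lyz2 (ENSMUSG00000069516, chromosome 10, 117277331 to 117282321) encodes the myeloid lysozyme, which cuts bacterial cell walls, and was the most highly expressed of the 10 genes in lymph node. AGF- libraries held 1056, 1365 and 1300 CPM in KI/+ mice and 1212, 1197 and 1869.6 CPM in AireKO. AGF+ cells held 236, 329 and 214 CPM in KI/+ mice and 257, 204 and 154 CPM in AireKO. The groups did not overlap, yet lymph node AGF+ cells still had more Lyz2 than any bone marrow library. The differences of AGF+ from AGF- cells were -2.26 ± 0.23 in KI/+ (adjusted p = 1.62e-05) and -2.79 ± 0.23 in AireKO (adjusted p = 2.48e-06).

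Bone marrow total DC had 85.3, 66 and 24.2 CPM of Lyz2, AGF+ KI/+ cells 50.2, 19.2 and 21.8 CPM and AGF+ AireKO cells 45.0, 18.4 and 19.9 CPM. These ranges overlapped, and the difference of AGF+ KI/+ cells from total DC missed the threshold (-0.93 ± 0.49, adjusted p = 0.147, 95% interval -2.01 to 0.15). With the replicate number as a block it passed (-0.93, adjusted p = 0.0124), and it also passed without the libraries numbered 1 (-1.13, adjusted p = 0.0333). Between tissues the gap was wide: Lyz2 was lower in bone marrow total DC than in lymph node AGF- cells by -4.41 ± 0.43, a factor of 21.2 (adjusted p = 4.18e-08). Among AGF+ cells it was lower in bone marrow by -3.10 ± 0.41 in KI/+ (adjusted p = 2.92e-06) and by -2.87 ± 0.41 in AireKO (adjusted p = 8.48e-06).

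Lyz1 (ENSMUSG00000069515, chromosome 10, 117287797 to 117292868) is the neighbouring gene, best known for the lysozyme of Paneth cells in the gut. It was read in all 12 lymph node libraries and hardly at all in bone marrow. AGF- cells held 59.9, 54.5 and 100.1 CPM in KI/+ mice and 76.0, 84.8 and 63.2 CPM in AireKO, and AGF+ cells 19, 3.66 and 5.04 CPM in KI/+ mice and 4.87, 10.1 and 7.61 CPM in AireKO. AGF+ libraries lay below all AGF- libraries, by -2.93 ± 0.45 in KI/+ (adjusted p = 0.00043) and -3.33 ± 0.47 in AireKO (adjusted p = 0.000158). The AGF+ KI/+ library 1 was the high one, and without it the KI/+ difference was -4.06 (adjusted p = 2.94e-05).

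All 9 bone marrow libraries together held 4 Lyz1 counts. Of these, 1 was in total DC, 0 in AGF+ KI/+ and 3 in AGF+ AireKO cells. Against 1010 counts in lymph node AGF- KI/+ cells, total DC was 1050.1-fold lower (counting interval 188 to 41516). Bone marrow AGF+ KI/+ cells were at least 50-fold lower than lymph node AGF+ KI/+ cells, which had 167 counts, with the floor set at 3 counts over the group. In AireKO, 3 against 116 counts made a 34.0-fold difference (counting interval 11.3 to 167). edgeR called Lyz1 lower in bone marrow in each of these 3 comparisons (adjusted p = 1.69e-08, 1.07e-05 and 0.00015), and such bounds and intervals cover counting error only.

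**Figure D2:**
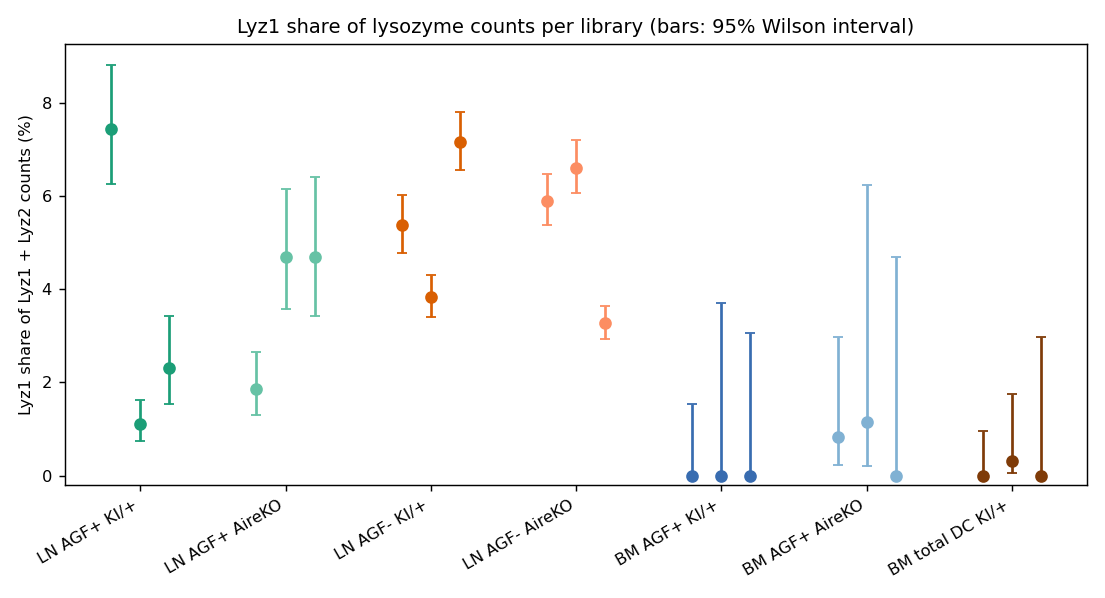
Share of Lyz1 among the counts of Lyz1 and Lyz2, in percent, per library, with 95% Wilson intervals. Lymph node libraries run from 1.10% to 7.43%, and bone marrow libraries from 0% to 1.15%.

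Because Lyz2 also fell between the tissues, the share of Lyz1 among the counts of both genes was computed. It was 4.92% over the 12 lymph node libraries (2512 of 51018 counts, 95% Wilson interval 4.74 to 5.11) and 0.233% over the 9 bone marrow libraries (4 of 1719 counts, 0.0905 to 0.597). The lymph node libraries spread beyond their counting intervals: the 3 AGF+ KI/+ libraries had 7.43%, 1.10% and 2.30%. The lowest lymph node library therefore lay just under the highest bone marrow library, whose 1.15% rests on 1 count of 87. The 2 transcripts share 16.1% of the 50-base windows of Lyz1 and 0 of its 150-base windows, so reads that hold only a shared stretch could be assigned to either gene or dropped, depending on counting rules that the sources used here do not state.

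C1qa, C1qb and C1qc encode the A, B and C chains of C1q and lie together on the minus strand of chromosome 4, between 136880129 and 136898803. All were highest in bone marrow total DC. C1qa had 22, 20.1 and 16.3 CPM there, C1qb 59.5, 46.3 and 28.8 CPM, and C1qc 37.6, 30 and 15.7 CPM. Bone marrow AGF+ KI/+ cells had 1.84, 1.15 and 0.716 CPM of C1qa, 7.37, 3.07 and 1.07 CPM of C1qb, and 3.48, 1.15 and 0.716 CPM of C1qc. No library of the one group reached those of the other for any chain. AGF+ cells were lower by -3.96 ± 0.34 for C1qa (adjusted p = 9.32e-06), -3.55 ± 0.51 for C1qb (adjusted p = 0.000242) and -3.96 ± 0.51 for C1qc (adjusted p = 0.000113). Without the AGF+ KI/+ library 1, the highest of its group, C1qb was at -4.42 (adjusted p = 0.000134) and C1qc at -4.85 (adjusted p = 0.000114).

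In lymph node the C1q chains separated the sorts less. C1qa held 6.68, 5.67 and 6.36 CPM in AGF- KI/+ against 3.48, 2.44 and 1.31 CPM in AGF+ KI/+ cells. C1qb held 9.35, 6.68 and 9.54 against 4.59, 5.80 and 1.10 CPM, and C1qc 7.79, 8.5 and 9.54 against 3.17, 3.20 and 0.657 CPM. All AGF+ libraries were below all AGF- libraries, but none of the 3 differences passed: C1qa -1.33 ± 0.53 (95% interval -2.48 to -0.18, adjusted p = 0.0971), C1qb -1.10 ± 0.48 (-2.14 to -0.06, adjusted p = 0.129) and C1qc -1.81 ± 0.73 (-3.38 to -0.24, adjusted p = 0.0974). With the replicate number as a block, C1qa (-1.44, adjusted p = 0.017) and C1qc (-1.95, adjusted p = 0.033) passed.

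The AireKO lymph node gave the same directions, with 1 library apart. In AGF- cells C1qa stood at 11.4, 8.15 and 5.07 CPM, C1qb at 15.9, 13 and 16.8 CPM and C1qc at 18.4, 8.49 and 11.1 CPM. In AGF+ cells library 1 had 8.05, 11.1 and 12.6 CPM of C1qa, C1qb and C1qc, against 1.64 to 2.01, 2.88 to 4.43 and 0.617 to 2.01 CPM in the other 2. That library was the high one for all 3 chains and overlapped AGF- cells for C1qa and C1qc. No chain passed with it (C1qa -1.03 ± 0.50, adjusted p = 0.151; C1qb -1.28 ± 0.45, adjusted p = 0.0521; C1qc -1.26 ± 0.66, adjusted p = 0.185), and all 3 passed without it (-2.16, -2.05 and -3.24, adjusted p = 0.00528, 0.00747 and 0.00215). As a block, the replicate number brought C1qa (-1.14, adjusted p = 0.0295) and C1qb (-1.37, adjusted p = 0.0202) past the threshold.

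**Figure D3:**
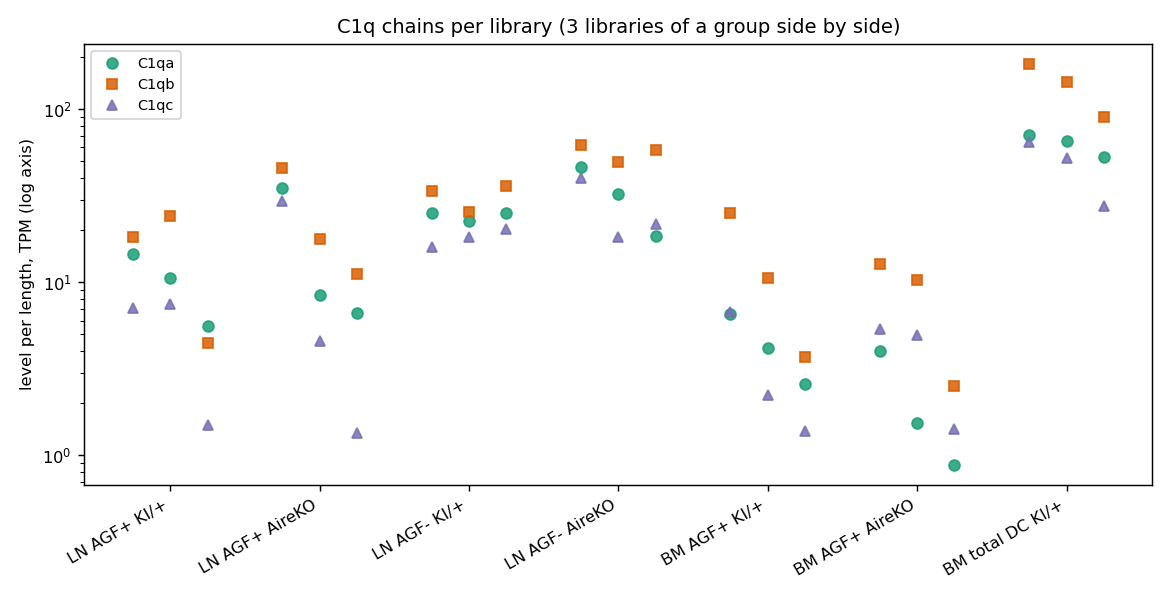
Level per length of the 3 C1q chains, in TPM on a log axis, with the 3 libraries of each group side by side. The chains mostly move together from library to library. One exception is the lymph node AGF- AireKO library 3, the lowest of its group for C1qa but not for C1qb or C1qc. C1qb is the highest of the 3 in all but the lymph node AGF+ KI/+ library 3.

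Per length of exon (TPM), total DC held 138 ± 46.2 (SD, n = 3) of C1qb, 62.8 ± 8.99 of C1qa and 48.2 ± 19 of C1qc. C1qb made up 48.1% ± 7.96 (SD, n = 12) of the C1q TPM in lymph node libraries and 56.9% ± 5.48 (n = 9) in bone marrow libraries. C1qa made up 32.1% ± 7.07 and 22.1% ± 7.52. These shares overlapped between the tissues and rest on 76 to 1340 C1q counts per group. Over the 21 libraries the log2 levels of the chains correlated with r = 0.93 (C1qa with C1qb), 0.92 (C1qa with C1qc) and 0.95 (C1qb with C1qc), and their deviations from the group means with 0.77, 0.88 and 0.89. The points share library and depth, so these values are descriptive.

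Adgre1 (ENSMUSG00000004730, chromosome 17, 57358691 to 57483527), which encodes F4/80, was high in bone marrow total DC at 411, 681 and 502 CPM. AGF+ cells of the marrow had 60, 63 and 67.3 CPM in KI/+ mice and 99.3, 77.6 and 97.4 CPM in AireKO. In lymph node, AGF- cells had 139, 112 and 122 CPM in KI/+ mice and 178, 127 and 91.6 CPM in AireKO, and AGF+ cells 26.1, 30.5 and 35.7 CPM in KI/+ mice and 39.1, 28.8 and 15.8 CPM in AireKO. Sorts did not overlap within a tissue and genotype. AGF+ cells were lower by -3.06 ± 0.18 in bone marrow (adjusted p = 7.92e-07), by -2.02 ± 0.29 in lymph node KI/+ (adjusted p = 0.000232) and by -2.24 ± 0.29 in lymph node AireKO (adjusted p = 8.4e-05).

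Adgre1 was the gene called higher in bone marrow than in lymph node AGF+ cells, by 1.05 ± 0.26 in KI/+ (adjusted p = 0.00179) and 1.70 ± 0.26 in AireKO (adjusted p = 1.69e-05). Its relative Adgre4, which encodes the related receptor F4/80-like EMR4, went the other way. Adgre4 held 219 ± 35 CPM (SD, n = 3) in lymph node AGF- KI/+ cells and 0.554 ± 0.455 CPM in bone marrow total DC, lower by -8.59 ± 0.38 (adjusted p = 1.56e-12), where Adgre1 was higher by 2.09 ± 0.25 (adjusted p = 5.91e-07).

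Fcgr1 (ENSMUSG00000015947, chromosome 3, 96282909 to 96293969) encodes CD64, often used to tell macrophages from DCs. Total DC had 47.5, 75.0 and 54.4 CPM, bone marrow AGF+ KI/+ cells 1.43, 1.54 and 0.537 CPM and AGF+ AireKO cells 1.88, 0.858 and 0 CPM. Its difference between the bone marrow sorts, -5.64 ± 0.43 or 49.8-fold (adjusted p = 4.34e-06), was larger in size than that of the C1q genes, Adgre1 and Csf1r, which was not tested between genes. In lymph node it held 10.0, 11.5 and 6.58 CPM in AGF- KI/+, 0.791, 2.59 and 2.41 CPM in AGF+ KI/+, 17.2, 10.1 and 27.7 CPM in AGF- AireKO and 3.36, 1.61 and 0.411 CPM in AGF+ AireKO cells. AGF+ libraries were below AGF- libraries throughout, by -2.29 ± 0.54 in KI/+ (adjusted p = 0.0081) and -3.27 ± 0.53 in AireKO (adjusted p = 0.000507). The KI/+ call was lost without the libraries numbered 1 (-1.85, adjusted p = 0.0679) or 2 (-2.44, adjusted p = 0.051). Without the AGF+ AireKO library 1 the AireKO difference was -4.14 (adjusted p = 0.000652).

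Csf1r (ENSMUSG00000024621, chromosome 18, 61100598 to 61132149) encodes the receptor for CSF1 and IL-34. It held 614, 579 and 379 CPM in total DC, 504, 492 and 364 CPM in lymph node AGF- KI/+ and 765, 472 and 429 CPM in AGF- AireKO cells, which overlapped. AGF+ cells held 153, 127 and 118 CPM in lymph node KI/+, 198, 119 and 72.8 CPM in lymph node AireKO, 71.6, 46.1 and 17 CPM in bone marrow KI/+ and 79.0, 42.7 and 31.7 CPM in bone marrow AireKO. AGF+ cells were lower by -1.77 ± 0.30 in lymph node KI/+ (adjusted p = 0.000973), -2.09 ± 0.31 in lymph node AireKO (adjusted p = 0.000226) and -3.54 ± 0.46 in bone marrow (adjusted p = 0.000133). Its exons share 873 of 5774 bases with Hmgxb3 on the opposite strand. Hmgxb3 stayed within 65.6 to 92.2 CPM in all libraries, and the sources used here do not say whether counting used strand.

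Mpo (ENSMUSG00000009350, chromosome 11, 87793581 to 87804413) was read almost only in total DC, at 93.0, 3.29 and 12.4 CPM. In the other 18 libraries it reached at most 0.657 CPM, about the level that a count of 0 allows. Bone marrow AGF+ KI/+ cells held 2 counts against 515 in total DC, a ratio of 275 (counting interval 75.6 to 2273), and lymph node AGF- KI/+ cells held 2 as well, a ratio of 248 (68.2 to 2051). Both differences passed the test (adjusted p = 0.0017 and 1.19e-05). Without the total DC library 1 both fitted changes shrank, from -7.87 to -5.69 (adjusted p = 0.00026) and from 7.77 to 5.60 (adjusted p = 1.33e-05). Fitted changes of a gene so near 0 depend on the prior count and are not bounds.

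Other genes of early granules were uneven over the total DC libraries in the same order. Elane, neutrophil elastase, had 18.8, 0.206 and 1.74 CPM, Ctsg, cathepsin G, 25.9, 1.44 and 5.42 CPM, and Ms4a3, which marks granulocyte and monocyte progenitors, 10.7, 2.26 and 4.45 CPM. Library 1 was the highest for each. Markers of mature neutrophils, 11 genes, summed to 5.23 to 11.3 CPM in total DC and 2.51 to 13.3 CPM in bone marrow AGF+ KI/+ cells, with Retnlg at 0 in total DC. The part of precursor cells in the Mpo level was not tested. Prss57, another gene of the early granule list, went the other way, with 6.61 ± 0.801 CPM in AGF+ KI/+ cells and 1.40 ± 1.38 CPM in total DC (2.26 ± 0.49, adjusted p = 0.0033).

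The lymph node comparison of AGF+ with AGF- cells asks how the reporter-positive cells differ from other DCs of the organ. In KI/+ mice 6 of the 9 genes tested were lower in AGF+ cells and 0 higher, where 11% of 15884 genes tested were called lower and 10.1% higher, and the median change was -2.02 against 0.01 for all genes. In AireKO mice 6 of 9 were lower too, where 13.3% of all genes were lower and 11.4% higher, with a median of -2.24. In both genotypes the 6 were Ly6c2, Lyz1, Lyz2, Adgre1, Fcgr1 and Csf1r, and Mpo was too low to be tested. With the replicate number as a block, C1qa passed too in both genotypes, C1qc in KI/+ and C1qb in AireKO.

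Other genes of the monocyte and macrophage programmes moved unevenly in KI/+ lymph node. Of 14 monocyte genes, 10 were lower in AGF+ cells, among them Ccr2, the chemokine receptor that brings monocytes out of the marrow (-4.65 ± 0.43, adjusted p = 8.74e-06), Plac8 (-2.89 ± 0.26, adjusted p = 6.23e-06) and Ifitm6 (-3.29 ± 0.35, adjusted p = 2.49e-05). In AireKO all 14 were lower. These counts do not compare the genotypes, and the AGF- AireKO cells themselves leaned higher in these genes without passing, as given below. Of 14 macrophage genes tested in KI/+, 6 were lower and 1 higher. The lower ones of smallest p were Timd4, a receptor for apoptotic cells (-2.26 ± 0.37), Hmox1, heme oxygenase (-2.19 ± 0.47), and Cd68 (-0.89 ± 0.20). The higher one, Gpnmb (3.42 ± 1.03, adjusted p = 0.03), spread widely in AGF+ cells, 0.791, 18.2 and 6.57 CPM, and overlapped AGF- cells at 0.891, 1.21 and 0.212 CPM. In AireKO 7 macrophage genes were lower and 2 higher, Vcam1 (0.93 ± 0.24) and Cd63 (0.85 ± 0.23).

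Genes that work with C1q, CD64 and the CSF1 receptor were counted too. Of 13 complement genes in KI/+ lymph node, 7 were lower in AGF+ cells and 1 higher, and those of smallest p were Cd55, which protects cells from complement (-4.23 ± 0.54), C3, the central component (-2.16 ± 0.30), and Itgax, the CD11c subunit of complement receptor 4 (-1.33 ± 0.21). The higher one was C2 (1.32 ± 0.42). Of 9 Fc receptor genes, 6 were lower. Those of smallest p were Fcmr, the IgM receptor (-5.17 ± 0.70), Fcer2a, the low-affinity IgE receptor CD23 (-2.21 ± 0.34), and the inhibitory IgG receptor gene Fcgr2b (-1.53 ± 0.24), and Fcgr3 was lower by more than the last pair (-3.24 ± 0.55). Fcmr and Fcer2a are B cell genes, and 8 of 9 B cell markers were lower as well, their sum being 353 to 778 CPM in AGF- KI/+ and 70.1 to 101 CPM in AGF+ KI/+ cells. The part of B cells in these changes was not tested.

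Of 18 genes of the CSF1 axis and of myeloid transcription factors, 11 were lower in AGF+ KI/+ cells and 0 higher. The G-CSF receptor gene Csf3r (-2.24 ± 0.22), Runx1 (-1.08 ± 0.12) and Nr4a1, needed for Ly6C-low monocytes (-2.16 ± 0.37), had the smallest p. Of 16 lysosomal genes 7 were lower, by less: Npc2 by -1.14 ± 0.14, Psap by -0.96 ± 0.14 and Ctsa by -0.64 ± 0.12. Of 4 other Ly6 genes all 4 were lower, Ly6e by -2.43 ± 0.17, Ly6i by -3.59 ± 0.26 and Ly6d, a gene of B cells and plasmacytoid DCs, by -4.85 ± 0.42. Both adhesion receptor relatives of Adgre1 were lower, Adgre4 by -1.66 ± 0.22 and Adgre5 by -1.04 ± 0.13.

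In bone marrow 8 of the 9 genes tested were lower in AGF+ KI/+ cells than in total DC and 0 higher, where 21.6% of 15503 genes tested were called lower and 22.8% higher. The median change was -3.55 against 0.02 for all genes. Lyz2 did not pass here but did with the replicate number as a block, and Lyz1 was too low to be tested. The sorts differ in surface markers besides the reporter, CD11b among them, so reporter and gate cannot be told apart for any gene here. All 9 complement genes tested were lower, but the sorts select on the products of 2 of them. Itgam (-4.20 ± 0.26) encodes CD11b, which the AGF+ gate selects against, and Itgax (-2.99 ± 0.70) encodes CD11c, which the total DC gate selects for, so neither is a finding. Of the other 7, Cfp, properdin (-2.22 ± 0.20), Itgb2, the partner chain of CD11b and CD11c (-1.53 ± 0.14), and C3ar1, the C3a receptor (-3.93 ± 0.46), had the smallest p.

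Of 12 macrophage genes tested in bone marrow, 6 were lower in AGF+ cells and 3 higher. Mertk, a receptor for apoptotic cells, fell from 109 ± 14.9 to 21.5 ± 4.75 CPM (-2.33 ± 0.23, adjusted p = 2.12e-05), and Axl from 260.4 ± 105 to 29.0 ± 12.7 CPM (-3.16 ± 0.40, adjusted p = 0.000105). Cd68 was lower by -1.26 ± 0.18. The higher genes were Timd4, Vcam1 (1.30 ± 0.24) and Mrc1 (0.86 ± 0.24). Timd4 had 4.62 ± 1.51 CPM in AGF+ KI/+ cells and 0.143 ± 0.247 CPM, 2 counts in all, in total DC (adjusted p = 0.000247), opposite in direction to lymph node. Of 10 monocyte genes 7 were lower and 1 higher: Ccr2 changed by -3.95 ± 0.58 and Vcan by -2.46 ± 0.36, and Plac8, also known from plasmacytoid DCs, was higher by 3.10 ± 0.47.

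Of 7 Fc receptor genes in bone marrow 5 were lower and 1 higher. The common signalling chain gene Fcer1g was lower by -1.66 ± 0.15 and Fcgr4 by -4.62 ± 0.48, and Fcer2a was higher by 6.03 ± 0.65. Of 17 genes of the CSF1 axis and myeloid factors 9 were lower and 3 higher. Cebpa changed by -1.89 ± 0.26 and Spi1 by -0.78 ± 0.13, and the higher genes were Gfi1 (2.07 ± 0.36), Nr4a1 (1.58 ± 0.46), which had been lower in lymph node, and Spic (0.84 ± 0.30). Spi1 held 132 ± 17.3 CPM in total DC and 76.4 ± 8.36 CPM in AGF+ KI/+ cells. Of 16 lysosomal genes 11 were lower and 1 higher: Ctss, which cuts the invariant chain of MHC class II, changed by -1.44 ± 0.17 and Lipa, acid lipase, by -1.75 ± 0.21, and Ctsh was higher by 1.19 ± 0.13. Of 4 other Ly6 genes 3 were higher and 0 lower, with Ly6d at 5.60 ± 0.56, Ly6e at 1.28 ± 0.30 and Ly6i at 1.55 ± 0.51, opposite in sign to Ly6c2. Markers of other cells rose in AGF+ cells beside this: 7 of 8 plasmacytoid DC markers, whose sum was 1344 to 1506 CPM against 561 to 663 CPM, and 6 of 7 B cell markers, whose sum was 214 to 261 CPM against 27.9 to 38.7 CPM. Their part in the lower macrophage genes was not tested.

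AireKO cells were compared with KI/+ cells of the same sort to see whether loss of Aire moves these genes, and 0 of 9 tested passed in each of the 3 sorts. Over all genes, 0.0126% passed in lymph node AGF+ cells, 0.0063% in AGF- cells and 0.0129% in bone marrow AGF+ cells. DESeq2 called 0 as well. At an unadjusted p under 0.05 in edgeR there was 1 gene, Adgre1 in bone marrow (0.53 ± 0.18, 95% interval 0.15 to 0.91, adjusted p = 1). Its AireKO libraries all lay above its KI/+ libraries. The intervals were narrow for the well expressed genes, -0.82 to 0.12 for Lyz2 and -0.68 to 0.60 for Csf1r in lymph node AGF+ cells. They were wide for the low ones, -0.51 to 2.7 for C1qc and -2.07 to 2.86 for Ly6c2. In AGF- cells all 9 genes leaned higher in AireKO without passing. The smallest change was that of Lyz1 (0.05 ± 0.39), and Fcgr1 had the largest (0.94 ± 0.45, 95% interval -0.02 to 1.9, adjusted p = 0.829). No gene of the related lists passed for genotype in any of the 3 sorts. The nearest was the monocyte gene Fn1, lower in lymph node AGF+ AireKO cells (-3.01 ± 0.45, edgeR adjusted p = 0.0607). In lymph node AGF- cells all monocyte genes tested, Fn1 among them, leaned higher in AireKO without passing. Those of smallest p were Ifitm6 (0.88 ± 0.25, edgeR adjusted p = 0.798), Treml4 (0.66 ± 0.22) and Chil3 (1.92 ± 0.70). The effect of the sort did not differ between the genotypes past the threshold for any of the 9 genes (adjusted p = 1 for each), where 0.0063% of all genes did.

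Between tissues, 6 of 10 genes were higher in bone marrow total DC than in lymph node AGF- KI/+ cells and 3 were lower, where 27.3% of 17265 genes were called higher and 28.8% lower. Higher were C1qa (1.64 ± 0.41, adjusted p = 0.00217), C1qb (2.39 ± 0.48, adjusted p = 0.000278), C1qc (1.68 ± 0.58, adjusted p = 0.018), Fcgr1 (2.65 ± 0.42, adjusted p = 2.14e-05), Adgre1 and Mpo. Lower were Lyz1, Lyz2 and Ly6c2 (-2.05 ± 0.55, adjusted p = 0.00363), and Csf1r did not pass (0.21 ± 0.38, 95% interval -0.58 to 1.00, adjusted p = 0.66). The C1qc call was lost without the libraries numbered 2 (1.60, adjusted p = 0.126), and without the lymph node AGF- library 1 or the total DC library 1 (1.60 and 1.42, adjusted p = 0.0579 and 0.0643). The Ly6c2 call was lost without the libraries numbered 3 (-1.43, adjusted p = 0.101), and its value was -2.92 without the total DC library 1 (adjusted p = 0.000509). The cells of the tissues were gated differently, so tissue and gate cannot be told apart.

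Related genes split between the same populations. Of 14 monocyte genes 9 were lower in total DC and 3 higher. Those of smallest p were Cx3cr1 (-6.72 ± 0.54) and Ace (-6.45 ± 0.65), which are high in Ly6C-low monocytes, and Ms4a6c (-2.44 ± 0.27). The higher ones were Chil3 (7.25 ± 0.90), Vcan (4.15 ± 0.61) and Fn1 (3.63 ± 0.60). Of 15 macrophage genes 5 were higher and 6 lower: Mertk was higher by 5 ± 0.40 and Vcam1 lower by -3.39 ± 0.28, and Timd4 stood at 0.143 ± 0.247 against 21.9 ± 6.27 CPM (adjusted p = 1.67e-08). Of 13 complement genes 3 were higher and 3 lower. C3ar1 stood at 119 ± 5.58 against 2.23 ± 1.16 CPM (5.70 ± 0.57), and Cfp was higher by 1.48 ± 0.21. Of 16 lysosomal genes 7 were higher and 1 lower, among them Lamp2 (1.46 ± 0.16), Ctsz (0.85 ± 0.13) and Ctsh (-0.99 ± 0.14). Of 18 genes of the CSF1 axis and myeloid factors 4 were higher and 9 lower, those of smallest p being Nr1h3 (-4.30 ± 0.38), Csf3r (-3.53 ± 0.33) and Nr4a1 (-4.71 ± 0.46). Of 9 Fc receptor genes 1 was higher, Fcgr3, encoding the IgG receptor CD16 (3.88 ± 0.52, 293 ± 73.6 against 19.8 ± 3.89 CPM), and 4 were lower, with the B cell genes Fcer2a and Fcmr both at -5.58. B cell markers, 9 of 9, and T and NK cell markers, 11 of 11, were lower in total DC.

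Among AGF+ cells, 1 gene was higher in bone marrow and 3 lower in KI/+, where 27.1% of genes were called higher and 27.2% lower, and 1 higher and 4 lower in AireKO, where 25.7% were called in each direction. Adgre1 was the higher gene in both. Csf1r was lower, by -1.57 ± 0.41 in KI/+ (adjusted p = 0.00275) and -1.34 ± 0.40 in AireKO (adjusted p = 0.00902), as were Lyz1 and Lyz2. C1qa was lower in AireKO (-2.60 ± 0.65, adjusted p = 0.00219) and not past the threshold in KI/+ (-1.01 ± 0.59, adjusted p = 0.157), a contrast between genotypes that was not tested. Both AireKO calls rest on the lymph node AGF+ AireKO library 1, which was high in C1q: without it C1qa was -1.45 (adjusted p = 0.0618) and Csf1r -0.87 (adjusted p = 0.101). C1qa was -3.42 without the bone marrow AGF+ AireKO library 1 (adjusted p = 0.00312). The Csf1r call was also lost without the libraries numbered 2 (-1.26, adjusted p = 0.116) and without the bone marrow AGF+ AireKO library 3 (-1.06, adjusted p = 0.0583).

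The difference between AGF+ and the other sorted cells of KI/+ mice was itself compared between the tissues. It was more negative in bone marrow for 5 of the 10 genes, Fcgr1, C1qa, C1qb, Csf1r and Adgre1, and less negative for 0, where 9.75% of 17265 genes were called lower and 11.2% higher. All 5 calls were lost without the libraries numbered 2, with fewer libraries in each group. The fitted differences stayed negative and are given below.

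The genes whose log2 levels followed each of the 10 most closely over the 21 libraries were sought among 11544 genes. These values mostly reflect which groups are high, and the points share library and depth. Ly6c2 was most like Tlr8 (r = 0.95), Tnfsf14 (0.94) and Ccr2 (0.94). Lyz1 was most like Pla2g2d, Adgrl3 and Otulinl (0.98, 0.98 and 0.97), and Lyz2 like Otulinl, Abca9 and Krt80 (0.98, 0.98 and 0.97). C1qa followed Pald1, Acss1 and Bin1 (0.94 each), C1qb followed Hexa and Plau (0.94 and 0.92), and C1qc followed Apba1 and Acss1 (0.91 each).

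Adgre1 was most like Dab2, Emilin2 and Ubl3 (0.96, 0.95 and 0.95), Fcgr1 like Ms4a6d, Frrs1 and Hexa (0.98, 0.96 and 0.95), and Csf1r like Gpr141, Sh2d1b1 and Fcgr2b (0.97, 0.97 and 0.96). Mpo was most like Ms4a3 (0.95), Cpa3 (0.91) and Atp6v0e (0.90). Within the 10 genes, Lyz1 and Lyz2 correlated at 0.95 over the libraries but at 0.01 in their deviations from the group means, whereas C1qa and Csf1r correlated at 0.92 and 0.81.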

How the data were processed

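RNA of sorted DCs was read in 21 libraries (3 per group). Per the labels' protocols, libraries (Ovation SoLo) came from 1 ng of RNA of integrity over 7 and were read paired-end, 150 bases. The submitters' processing notes name the trimmer fastp 0.20.0, the aligner STAR 2.7.3a, SAMtools 1.9 with Picard 2.21.1, the counter HTSeq 0.11.2, edgeR 3.38.1 and genome mm10 (GRCm38). The sources used here do not state the annotation release, strand setting or treatment of shared reads. The deposited table of raw counts per gene was used, and the normalized table was not. Identifiers were matched to GENCODE vM21, and 327 genes, with 0.0139% of counts, had no symbol.

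Genes were tested with edgeR 4.0.16 (TMM, expression filter by group, quasi-likelihood F test, adjusted p under 0.05) in R 4.3.3, in 1 fit of the 12 lymph node libraries, 1 of the 9 bone marrow libraries and 1 of all 21 for comparisons between tissues. The SE is the log2 fold change divided by the root of F. CPM uses TMM library sizes of the last fit (factors 0.876 to 1.09), and TPM the exon bases of GENCODE. The 21 replicate pairs differed beyond counting noise (chi-square per degree of freedom 4.46 to 20.3). The tests were run on simulated counts for some of the comparisons. These counts had the same spread setting for every gene and no pairing, so the check does not cover the spread seen here.

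The genes, lists and motif were chosen with earlier results of these data known. Text names all 10 genes, up to 3 called genes of smallest p per list and the 3 most correlated genes (prior count 2, at least 5 CPM in a group); Elane, Ctsg, Ms4a3, Spi1 and Prss57 values by library or group, Ly6c1, Hmgxb3, Flt3, Zbtb46, Gpnmb, Mrc1, Cd63, Chil3, Fn1, further called genes of the Fc receptor, complement, CSF1, macrophage and plasmacytoid DC lists and list genes at 0 were added after their values were seen. Some genes under this rule are left unreported. Cd4 in bone marrow and the monocyte genes named for genotype in AGF- cells were also added after their values were seen. Same-numbered libraries deviated together from their group means in 7 of the 9 pairs of groups from 1 tissue, including all those compared. They did so in 1 of 12 pairs across tissues (r over 0.1 for all 3 numbers in each case). The number was therefore read as a pairing within tissues. The main fits left it out, and calls that changed with it as a block are given as alternatives. Alternatives were DESeq2 1.42.0 size factors and Wald test, library size alone, no filter, only the groups compared, the replicate block and each library or number left out. Figures used Python 3.11.15 and matplotlib 3.10.9.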

Additional observations from a re-analysis of the deposited data

Results flagged for a closer look

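In KI/+ mice the difference of AGF+ cells from the other sorted DCs was larger in bone marrow than in lymph node for 5 of the 10 genes, by a test of the difference itself (edgeR, all 21 libraries), where 9.75% of all genes were called in this direction. The interaction was -3.36 ± 0.83 for Fcgr1 (adjusted p = 0.00575), -2.65 ± 0.72 for C1qa (adjusted p = 0.0113), -2.48 ± 0.76 for C1qb (adjusted p = 0.0241), -1.78 ± 0.55 for Csf1r (adjusted p = 0.0259) and -1.04 ± 0.35 for Adgre1 (adjusted p = 0.0381), on the log2 scale. In both tissues the 3 AGF+ KI/+ libraries lay below the 3 libraries of the other sort for each of these 5 genes. Lyz2 (1.31 ± 0.55, adjusted p = 0.0989) and Ly6c2 (2.95 ± 1.26, adjusted p = 0.106) leaned the other way without passing. All 5 calls were lost without the libraries numbered 2 (Fcgr1 -3.22, adjusted p = 0.102; C1qa -2.49, 0.154; C1qb -1.73, 0.404; Csf1r -1.78, 0.221; Adgre1 -0.72, 0.444). With any 1 of the 12 libraries left out, Fcgr1 still passed. C1qa was lost without the lymph node AGF+ library 1 (-2.26, adjusted p = 0.0553), C1qb and Csf1r were each lost in 5 of the 12 cases (adjusted p up to 0.115 and 0.0758), and Adgre1 in 10 (adjusted p up to 0.117). The bone marrow comparison sets AGF+ cells against a population gated differently, so the tissue and the choice of partner population cannot be told apart.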

How the results depend on the processing

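Of 674 alternative values of the 43 gene results that passed, 635 stayed past the threshold in the same direction, 39 no longer passed and 0 reversed. Among results that had not passed, C1qc between AGF+ cells of AireKO tissues (-1.30) reversed without the libraries numbered 1 (0.40) and without the lymph node AGF+ AireKO library 1 (0.70), over a range of -1.81 to 0.70 as libraries were left out. Counts of all genes called moved for genotype, from 2 to 97 without the filter and to 4 with the replicate block in lymph node AGF+ cells, from 1 to 270, to 0 with only the groups compared and to 2 with the replicate block in AGF- cells, and from 2 to 26 without the filter in bone marrow. For sort by genotype the count went from 1 to 14 without the filter and to 2 with the replicate block or the DESeq2 Wald test. Of the 10 genes, 5 were called for sort by tissue, and 9 without the filter. With the replicate block the genes called of the 10 went from 6 to 8 in each lymph node comparison of sorts, from 8 to 9 in bone marrow, from 5 to 6 for AGF+ AireKO cells of the tissues (C1qb -1.23, adjusted p = 0.0431) and from 5 to 6 for sort by tissue (Mpo -8.12, adjusted p = 0.0131), and no other call on the 10 genes was gained or lost.

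Leaving out libraries gave 5 to 7 of the 10 genes in lymph node KI/+ (all genes 1645 to 2923), 6 to 9 in lymph node AireKO (2263 to 4126), 7 to 9 in bone marrow (3858 to 7550), 4 to 4 (7217 to 8932) and 3 to 7 (6284 to 8269) between AGF+ cells of KI/+ and AireKO, 8 to 9 between the other DCs of the tissues (7195 to 9658) and 1 to 8 for sort by tissue (1779 to 3897). It was 0 to 0 for genotype in lymph node AGF+ (all genes 1 to 7), AGF- (0 to 89, the highest without the AireKO library 2) and bone marrow AGF+ cells (1 to 2), and for sort by genotype (0 to 2). Adgre1 in sort by tissue was also lost with library size alone (-0.97, adjusted p = 0.0664). The cause of these changes was not tested. Depth limits C1q, Fcgr1, Ly6c2 and Mpo in AGF+ cells, where few counts stand behind a library, and Lyz1 in bone marrow.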
